A study of Oryza sativa Indica Group with 24 samples.

Results

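The 100 clones described here gave low ratios of drought-stressed over well-watered rice leaves on day 55 after germination at every level of stress, and their mean over the levels was larger in size that day than on any other day the rule used. They were taken from the 7296 clones of a spotted complementary DNA array. The rule used the ratio of the raw intensities of the stress and the control channel, on the log2 scale and centred on each array's median. It kept the 3498 clones at brightness ranks 151 to 3648, and of these the 218 whose mean over the 3 stress levels was larger in size on day 55 than on any other day from 45 to 71, with a ratio below 0 at all 3 levels. The 100 with the highest minimum size over the 3 levels of day 55 are the members. The other 3398 clones of that brightness window serve as their comparison.

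The plants were Nagina 22, an indica rice cultivar known for its tolerance of drought and heat. Stress plots were held at 60% of field capacity (mild stress), 40% (moderate stress) or 15% (severe stress), and control plots at 100%; field capacity is the water that a soil keeps once it has drained. Each array set leaves of a stressed plot, labelled with Alexa 594, against leaves of the control plot of the same age, labelled with Alexa 488. Stress had lasted 7, 14, 17, 21, 25, 29, 33 and 37 days at days 45, 52, 55, 59, 63, 67, 71 and 75. There is 1 array for each level and day, and 23 of the 24 arrays had an intensity file used here, the severe array of day 75 being the exception. Every sample was pooled from several leaves of a plot, every array has the same dye orientation, and the plot codes do not differ within a level. No level and day has a replicate array, so that p-values measure the spread left between arrays of a day or of a level. The extraction protocol speaks of panicles beside leaves. The labels place day 55 before anthesis, the opening of the flowers, while the image names in the scanner file headers place it in the vegetative stage.

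In the days before flowering a rice plant moves from making leaves to building the panicle, and a shortage of water at this time is known to cost grain. Leaves short of water close their stomata, take up less carbon dioxide and commonly lower transcripts of photosynthesis and growth while raising those of protective proteins. Which of these functions the members serve cannot be read from the files used here. A cDNA clone is a piece of copied messenger RNA fixed to the slide, and none of the 100 clone names was found among the 39387 rice genes of the reference table. Clones are therefore named as printed, with no gene, role or sequence.

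On day 55 all 100 members were below 0 at all 3 levels, as the rule required; 26.8% of all clones were. In the values used from here on, each array was corrected for background (normexp) and normalised with 1 loess curve over its clones. The members' log2 ratio under mild stress ran from -3.71 to -0.50 with a median of -1.92. Under moderate stress it ran from -2.95 to -0.59 with a median of -1.45. Under severe stress it ran from -3.62 to -0.63 with a median of -1.34. The medians of the other window clones on the same arrays were -0.18 (mild), -0.16 (moderate) and -0.09 (severe). These are the values that chose the members and carry no test.

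A 2-fold lower level in stressed leaves was found for 91 members under mild stress, where 12.4% of all clones reached it. It was found for 80 members under moderate stress, against 8.06% of all clones, and for 73 members under severe stress, against 7.68%. All 3 levels reached it for 58 members, against 3.41% of all clones. The stress channel was above the array's empty spots for 7, 26 and 22 members on the mild, moderate and severe arrays. The sizes of these folds are therefore poorly known, as set out below. Of the 100 members, 57 had their lowest day 55 value on the mild array, 24 on the moderate and 19 on the severe array. This order of the levels turned when the arrays were scaled to a common spread: the medians were then -1.31 (mild), -1.27 (moderate) and -1.88 (severe). The median gap between a member's highest and lowest level of that day was 0.71. Over all clones the 3 arrays of day 55 correlated with each other at 0.60 to 0.62.

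**Figure D1:**
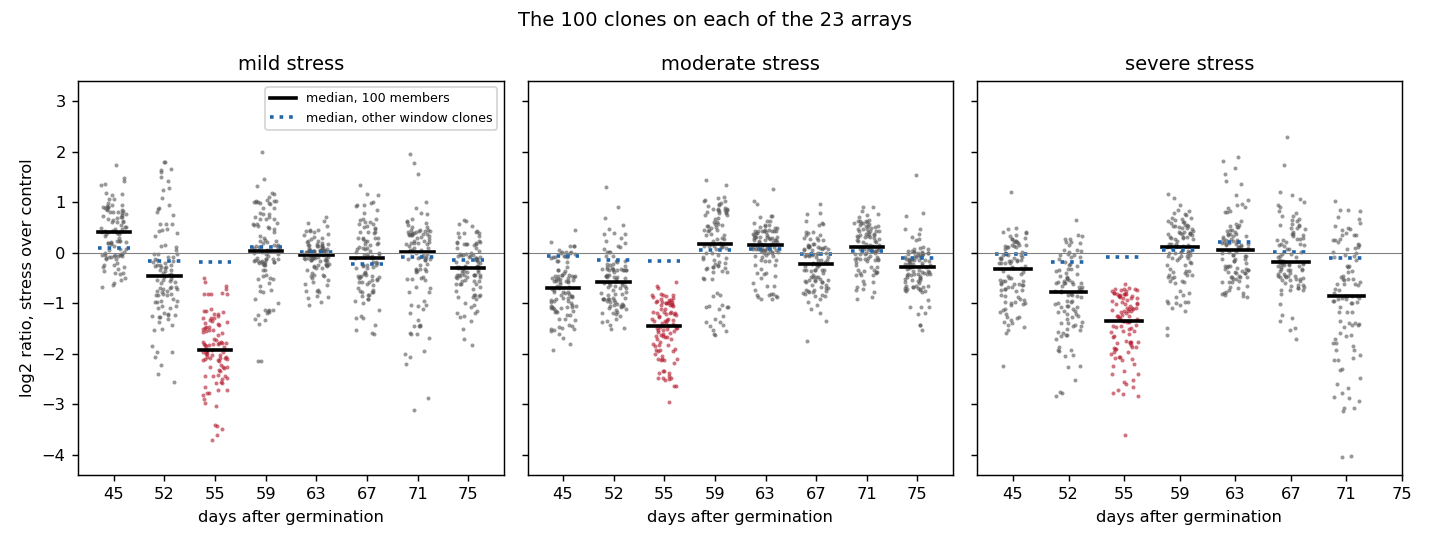
Each point is 1 of the 100 members on 1 of the 23 arrays, as the log2 ratio of stress over control (vertical axis) by day after germination (horizontal axis), with day 55 in red. Black bars are the members' medians and dotted blue bars the medians of the other clones of the same brightness window; on day 55 all members lie below 0, and on severe day 71 their median is -0.85.

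The 2 members with the highest minimum size on day 55 were NL7_G05 and NL12_E09. NL7_G05 had log2 ratios of -3.43, -2.52 and -2.85 under mild, moderate and severe stress that day. On the other days from 45 to 71 its lowest, median and highest values were -1.22, -0.26 and 0.16 under mild stress, -1.52, -0.61 and 0.62 under moderate stress, and -1.58, -0.71 and -0.18 under severe stress. The day 55 value was thus the lowest at each level. NL12_E09 had -3.71, -2.65 and -2.80 on day 55, and on the other days its lowest values were -1.19 (mild), -1.49 (moderate) and -2.77 (severe). The severe array of day 52, at -2.77, was within 0.1 of its severe value of day 55.

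NL23_F05, NL23_G07 and NL23_H11, also among the 10 with the highest minimum size, came from 1 clone plate and 1 print row. NL23_F05 had -2.51, -2.38 and -2.67 on day 55 under mild, moderate and severe stress. It was as low on mild day 52 (-2.56) and severe day 71 (-2.88), so its day 55 values were not the lowest of those 2 levels. NL23_G07 had -2.29, -2.34 and -2.52 on day 55 and -2.85 on severe day 71. NL23_H11 had -2.78, -2.13 and -3.62 on day 55, -3.13 on mild day 71 and -4.02 on severe day 71. All 3 clones were therefore lower on severe day 71 than on severe day 55.

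NL12_C02, NL42_C08 and NL15_B03 had nearly level values on day 55. NL15_B03 had -2.08, -2.10 and -2.10 under mild, moderate and severe stress, NL12_C02 had -2.22, -2.48 and -2.24, and NL42_C08 had -2.13, -2.51 and -2.12. NL12_B02 had -2.42, -1.68 and -2.55, and NL10_A01 had -3.49, -1.58 and -2.39. The last 2 were nearest to 0 under moderate stress.

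The 3 members just inside the threshold, NL6_A09, NL7_C02 and NL12_H01, had minimum sizes of 0.65, 0.65 and 0.65 on the ratio of the rule. The 3 clones just outside, NL31_D12, NL14_H05 and NL17_B04, had 0.63, 0.63 and 0.62. The edge of the list thus falls within a run of like values. Among the brightest members, NL22_A01 had -1.11, -1.20 and -0.72 on day 55 under mild, moderate and severe stress, NL16_H05 had -1.96, -1.51 and -2.09, NL20_E05 had -2.02, -1.50 and -1.76, and NL11_H11 had -1.34, -1.20 and -1.11. Members ranked from 243 to 3411 in brightness, with a median of 1041.

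The low ratios of day 55 lay mainly in the stress channel. After loess and scaling of the average intensity across arrays (Aquantile), the median log2 intensity of the members in the stress channel on day 55 was 10.32 (mild), 10.37 (moderate) and 10.13 (severe). On the other 20 arrays it was between 11.41 and 13.19, so that the 3 arrays of day 55 did not overlap with any of them. The rule chose low ratios on these 3 arrays, so that a low stress channel there is in part given by the choice. The other window clones had 11.45 (mild), 11.44 (moderate) and 11.15 (severe) on day 55 and from 11.19 to 11.65 on the other 20 arrays. In the control channel the median was 12.29 on the mild array of day 55, within the 11.85 to 13.33 of the other 20 arrays, and 11.83 and 11.56 on the moderate and severe arrays, below them. Taken per clone as the mean of day 55 minus the mean of the other days from 45 to 71, the stress channel was lower for 99 of 100 members, by a median of -2.07, and for 54.6% of the other window clones.

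The control channel was lower too, but by less: the median difference was -0.68, with 74 members lower and 26 higher on day 55. Of the 3398 other window clones 1725 were lower and 1673 higher, with a median of -0.01. Well-watered leaves of day 55 therefore also gave less signal for most members than well-watered leaves of the other days. Of those days, 59 to 71 were quantified in another session than day 55. Within the arrays quantified in the same session as day 55 (days 45 and 52), the stress channel was lower for 96 members, by a median of -1.32. The control channel was lower for 69 members, by a median of -0.19. Among the other window clones 53.1% were lower in the stress channel and 48.5% in the control channel. The deficits of both channels were thus smaller within the session than over all days.

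**Figure D2:**
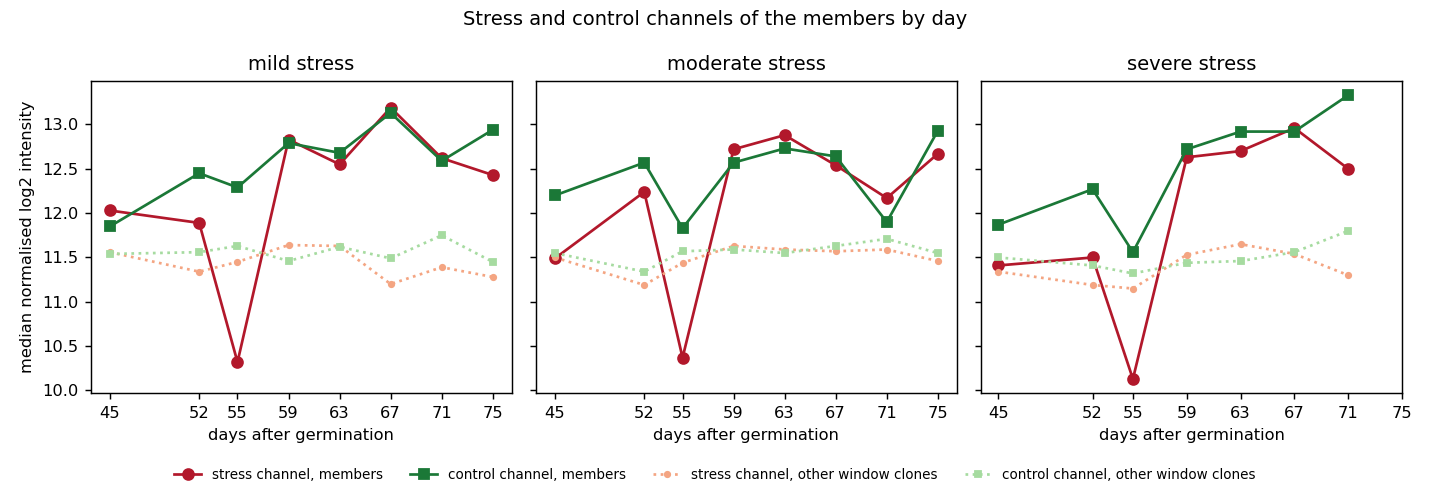
Median log2 intensity (vertical axis) by day after germination for stress (red) and control (green) channels, in 1 panel per level; solid lines are the 100 members and dotted lines the other clones of the brightness window. The members' stress channel is lowest on day 55 in all 3 panels, at 10.32 (mild), 10.37 (moderate) and 10.13 (severe).

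Taken over both sessions, the largest deficits of the stress channel were those of NL12_E09 (-3.43), NL42_C08 (-3.17) and NL22_F01 (-3.00). Each had a control channel that was also lower, by -1.08, -1.30 and -1.53. NL45_D06, NL39_C05 and NL45_B03 were of another kind. Their control channel was higher on day 55 by 1.26, 0.97 and 0.87, while their stress channel differed by 0.37, -0.80 and -0.23. For NL45_D06 the low ratio of day 55 came with more signal in well-watered leaves and not with less in stressed leaves.

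Signal near that of empty spots limits these values. All 200 member spots lay above their local background by 2 background SDs in both channels on each array of day 55. Set against the 95th percentile of the array's empty spots, however, 97, 91 and 81 members were above it in the control channel of the mild, moderate and severe arrays, and 7, 26 and 22 in the stress channel. For 63 members the stress channel was above it at no level. A fold for such a member is given as a rough bound, taken against the lowest intensity found above the empty spots where the member's own was lower. Clones were set against the empty spots by raw intensity and the bound was taken after normalisation, so it is not strict. By this bound the level of NL7_G05 was 8.34-fold lower in mildly stressed leaves and that of NL12_E09 4.67-fold, against folds of 10.8 and 13.1 without it. On the mild array 3 members were above the empty spots in neither channel and have no fold; of the 90 above them in the control channel alone, 72 had their own stress intensity below that lowest one, and the bound was 2-fold or more for 62. On the moderate array these numbers were 9, 65, 38 and 43. On the severe array 19 members were above the empty spots in neither channel. Among 59 above them in the control channel alone, the lowest intensity replaced the member's own for 1. The bound thus changed little on that array, where 78 members were not above the empty spots in the stress channel and their folds remain uncertain. No member spot was saturated, and the duplicate spots of the members correlated at 0.823 to 0.988 within an array.

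On day 52 the members were mostly below 0 as well. Their medians were -0.46 (mild), -0.58 (moderate) and -0.78 (severe), and 52 members were below 0 at all 3 levels, against 17.1% of all clones and 24.9% of the other window clones. With 1 loess curve per print block, the spots printed by 1 pin, the mild median of day 52 was -0.01, with 51 members below 0. On severe day 52 a 2-fold lower level was found for 40 members, against 7.81% of all clones. On that array 8 members were above the empty spots in the stress channel and 64 in the control channel, so the sizes of these ratios are poorly known too. Day 45 was mixed. The members' median was 0.41 under mild stress and -0.71 and -0.31 under moderate and severe stress. At all 3 levels 15 members were below 0, against 21.8% of all clones and 25.2% of the other window clones. With a curve per print block the mild median turned to -0.19. The mild array of day 45 is the one whose file holds sums over pixels.

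From day 59 to day 67 the members' medians lay between -0.23 and 0.16 with loess, but not with each array centred on its median alone. That centring gave 0.59 (mild), 0.57 (moderate) and 0.31 (severe) on day 59, 0.06, 0.58 and 0.54 on day 63, and -0.58, -0.22 and -0.62 on day 67. With loess, on day 59 the medians were 0.03, 0.16 and 0.12 under mild, moderate and severe stress. That day 43 members were above 0 at all 3 levels, against 22.9% of all clones and 34.0% of the other window clones. Below 0 at all 3 levels were 32 members, against 27.9% of all clones and 23.1% of the other window clones. On day 63 the members' medians were -0.04, 0.15 and 0.06. On day 67 they were -0.10, -0.23 and -0.18. At all 3 levels of day 67, 34 members were below 0, against 21.0% of all clones and 28.7% of the other window clones. On day 71 the levels parted. The median was 0.01 under mild and 0.12 under moderate stress, but -0.85 under severe stress, where 38 members were 2-fold lower, against 19.5% of all clones, and 26 members had the lowest of their severe values of days 45 to 71. Over all clones this severe array had the widest spread of the 23, with an SD of 1.40. On day 55 the 3 arrays had SDs from 0.58 to 0.78.

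The members shared low ratios on day 55 and differed on the other days. To describe them, the members were grouped by the correlation of their ratios over the 20 arrays of the other days (average linkage), after their values had been seen and with no test. Of the 4 groups, the first held 48 members led by NL23_F05, the second 31 led by NL7_G05, the third 20 led by NL39_H03, and NL9_H12 stood alone. The median correlation was 0.25 over pairs of members and 0.04 over pairs of the other window clones; all pairs share the same arrays.

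The 48 members led by NL23_F05 lay above 0 on day 59 and low again on severe day 71. Their medians on day 59 were 0.57, 0.59 and 0.42 under mild, moderate and severe stress, with 34 of 48 above 0 at all 3 levels. On day 71 the medians were -0.61, -0.13 and -1.68, and 31 of the 48 were 2-fold lower in severely stressed leaves. NL12_A02 shows this course at its widest, with 1.05, 1.34 and 0.61 on day 59 and -2.88, 0.52 and -4.04 on day 71. NL20_E12, with 1.31, 1.44 and 0.55 on day 59, had the highest 3-level mean of the group that day, at 1.10. For these 48, over both sessions, the control channel on day 55 differed little from the other days, by a median of 0.03, and the stress channel by -1.66.

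The 31 members led by NL7_G05 had medians below 0 on days 59, 63 and 67. Their medians on day 59 were -0.66, -0.86 and -0.56, with 25 of 31 below 0 at all 3 levels, and on day 63 they were -0.47, -0.42 and -0.29. On day 71 they were 0.35, 0.44 and -0.48. Before day 55, severe day 52 stood apart for them, at a median of -1.57 against 0.05 under mild stress. NL32_F08, NL34_A02 and NL39_C11 ran closest together, with correlations of 0.95 to 0.97 over the 20 arrays. They were chosen here after their values were seen. NL32_F08 had 1.66 on mild day 52 and -2.84 on severe day 52, and on day 59 it had -1.41, -1.43 and -1.10 under mild, moderate and severe stress.

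NL6_E07 and NL6_G11, of the same 31, had their lowest mild and severe values on day 59 and not on day 55. NL6_E07 had -2.14, -1.32 and -1.49 on day 59, against -1.78, -2.04 and -1.10 on day 55, and then 1.33, 0.96 and 2.30 on day 67. NL6_G11 had -2.15, -1.63 and -1.64 on day 59 and -2.09, -1.61 and -0.94 on day 55. Both met the rule on the uncorrected ratio, and after background correction and loess 94 of the 100 members still had their largest 3-level mean on day 55. The list itself was less stable. On the corrected ratios 399 clones met the conditions of the rule, and of the 100 it then chose 55 are members.

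The 20 members led by NL39_H03 began high under mild stress, at a median of 0.87 on day 45, and were nearest to 0 of the 3 groups on severe day 55, at -0.97. Their medians on day 67 were 0.40, 0.07 and 0.60 and on day 71 0.30, 0.34 and 0.23 under mild, moderate and severe stress, so that the return to low ratios of the first group on severe day 71 was not seen in them. In this group, as in the 31 led by NL7_G05, the control channel was lower on day 55 too, by -0.91 and -0.95. These differences were taken over both sessions and not within the session of day 55.

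**Figure D3:**
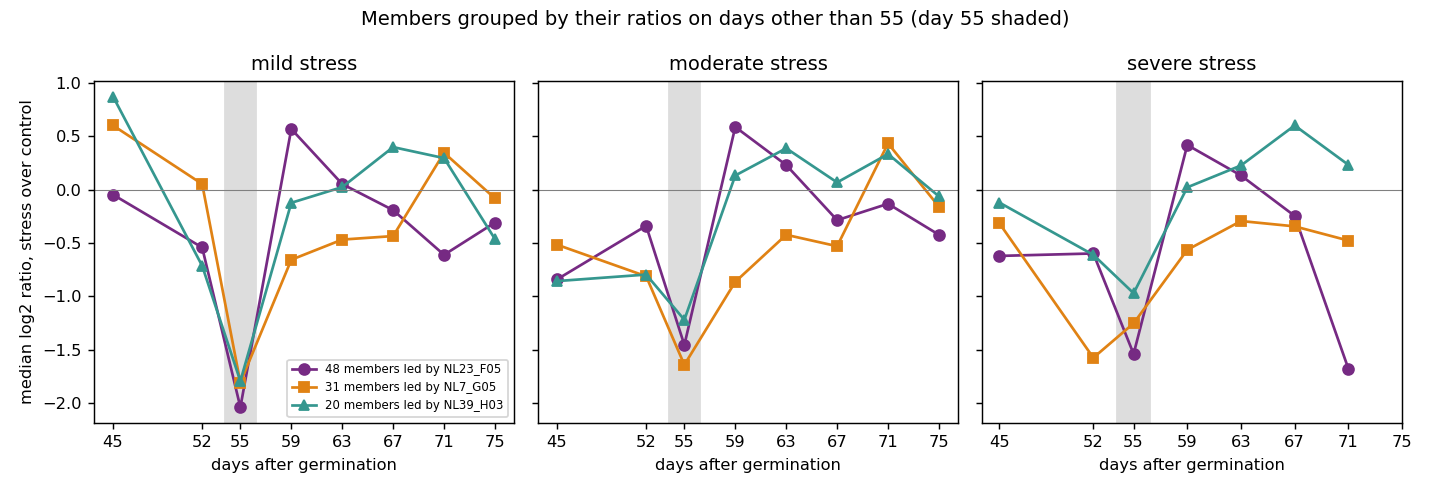
Median log2 ratio of stress over control (vertical axis) by day (horizontal axis) for the 3 groups of members, in 1 panel per level, with day 55 shaded. The 48 members led by NL23_F05 are above 0 on day 59 and at -1.68 on severe day 71; the 31 led by NL7_G05 stay below 0 on day 59; the 20 led by NL39_H03 are at 0.23 on severe day 71.

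The members were not spread evenly over the slide. A slide holds 12 print rows of blocks, each block printed by 1 pin, and 97 of the 100 members lay in print rows 1 to 6, which held 54.1% of the window clones. Rows 1, 2 and 3 held 24, 22 and 20 members, or 66 in all, against 25.8% of the window clones. Of the 4 print columns, the fourth held 6 members and 30.8% of the window clones. By clone set, 98 members had names of the NL plates, 2 of the NL_ plates and none of the MK plates, while the window held 2350, 895 and 253 of these sets. The members came from 35 plates, with at most 8 from 1 plate.

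The ratios of day 55 differed over the slide for other clones too. The median 3-level mean of day 55 over all clones of a print block ran from -0.56 to 0.41. The other window clones had medians of -0.30, -0.52 and -0.38 in print rows 1, 2 and 3, and 0.08, 0.21 and 0.06 in rows 6, 7 and 8. In rows 10, 11 and 12, which held no member and 7.4%, 3.1% and 2.0% of the window clones, their medians were again low, at -0.41, -0.29 and -0.53. All 100 members lay below the median of their own block, by a median of -1.37. That all did so was given by the choice, since the highest member mean of day 55 was -0.82 and the lowest block median -0.56. When 1 loess curve was fitted per print block, the members' medians on day 55 became -0.76 (mild), -0.74 (moderate) and -0.75 (severe), and 84 members stayed below 0 at all 3 levels, against 24.2% of all clones. These medians were nearer to 0 at every level, and 12 members were 2-fold lower at all 3 levels, against 0.795% of all clones. The 3 arrays of day 55 are those that chose the members, so these counts describe them and carry no test.

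Some members lost more than others in this step. NL23_H11 had -1.61, -1.13 and -3.16 under mild, moderate and severe stress with a curve per block, and NL7_G05 had -1.98, -1.38 and -0.94. NL12_A02 had -0.09, -0.45 and 0.03, and NL22_A01, the brightest member, had 0.20, -0.27 and 0.30. The same rule applied to these block-wise ratios chose 100 clones of which 32 are members, and 70 of them lay in print rows 1 to 6. The part of print position in the members' low ratios was not tested, and position, plate and clone set cannot be told apart by row.

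**Figure D4:**
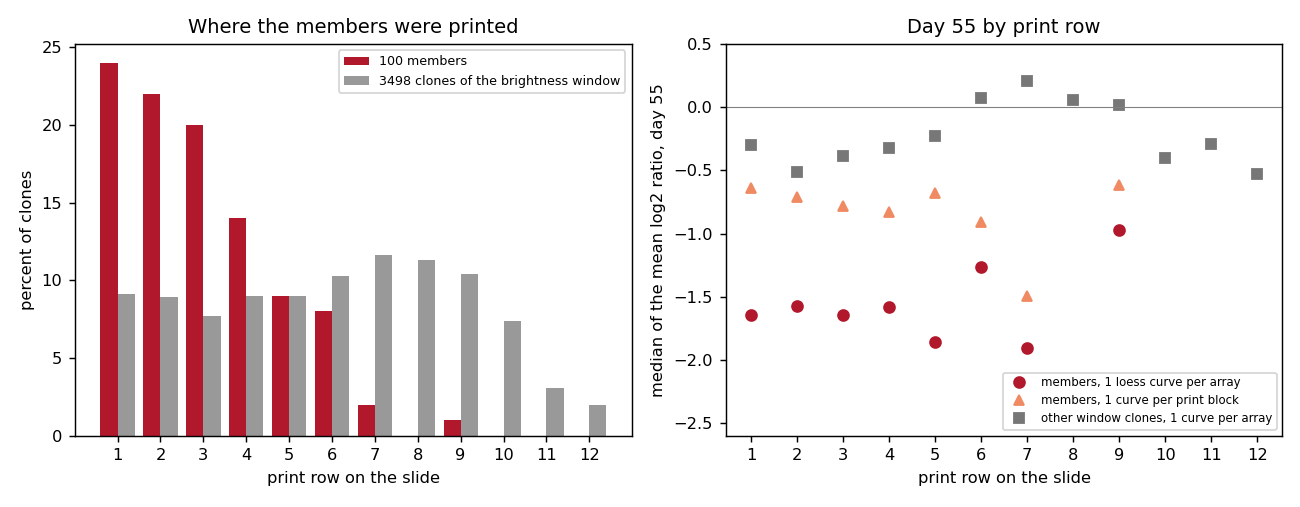
Left: percent of the 100 members (red) and of the 3498 window clones (grey) in each of the 12 print rows. Right: median of the mean log2 ratio of day 55 by print row, for members with 1 loess curve per array (circles), members with 1 curve per print block (triangles) and the other window clones (squares); rows with no member have no circle or triangle, and the triangles lie nearer to 0 than the circles in every row shown.

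Day 75 was not used to choose the members, and its 2 arrays tell whether stressed leaves gave low ratios again at seed setting. The members' median was -0.30 under mild and -0.28 under moderate stress, against -0.15 and -0.10 for the other window clones. By the mean of both arrays 82 members were below 0, against 49.4% of all clones and 66.3% of the 2986 clones left by a filter on dim clones. In all, 63 members were below 0 on both arrays, against 29.4% of all clones and 40.8% of the other window clones, and 7 were above 0 on both, against 29.3% of all clones. The mean of day 75 was tested against 0 in limma over the 23 arrays, with a mean for each day. No member and no other clone passed a Benjamini-Hochberg adjusted p of 0.05 (0.0% called in either direction). At an unadjusted p under 0.05, 13 members were lower and 0 higher, while 4.17% of all clones were lower and 3.0% higher, and 7.42% of the other window clones were lower and 1.97% higher. A constant bias between the dyes stays in these ratios.

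The lowest member on day 75 was NL10_B08, with -1.28 under mild and -1.54 under moderate stress, a mean of -1.41 (SE 0.39, 2 arrays) and a limma adjusted p of 0.266. The next were NL23_H11 (mean -1.08, SE 0.53), NL23_F05 (-1.03, SE 0.47) and NL22_H06 (-0.97, SE 0.36), with limma adjusted p from 0.531 to 0.703. The highest was NL6_E07, with 0.33 and 1.54 under mild and moderate stress and a mean of 0.94 (SE 0.47). NL12_A02, NL6_G11 and NL18_B07 had means of 0.56, 0.49 and 0.33. None of these members differed from 0 by the adjusted p. The groups led by NL23_F05, NL7_G05 and NL39_H03 had medians of -0.33, -0.27 and -0.31 that day.

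**Figure D5:**
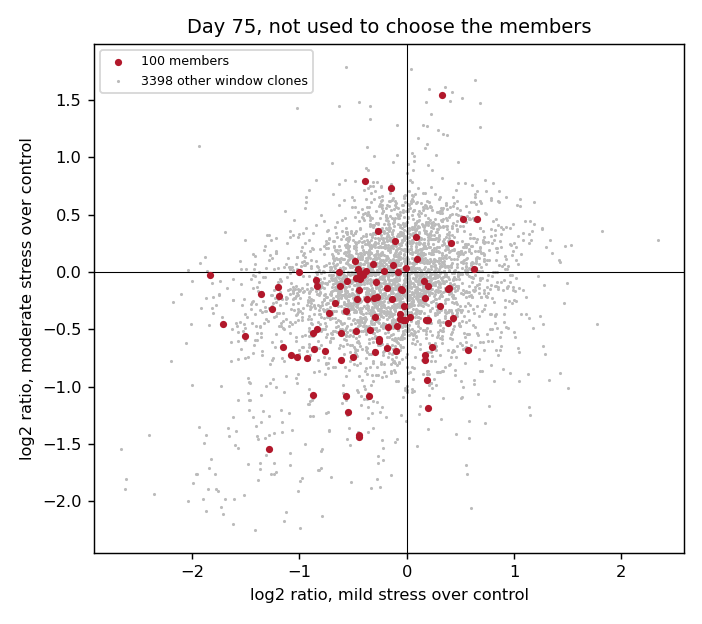
Log2 ratio of stress over control on day 75 under mild stress (horizontal axis) and moderate stress (vertical axis) for the 100 members (red) and the 3398 other clones of the brightness window (grey). Of the members, 63 lie below 0 on both arrays and 7 above 0 on both.

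Whether the members responded by level of stress was asked on the days other than 55, with day as a factor over 20 arrays. The rule limited the size of the mean over levels on days 45 to 71 but did not use the differences between levels. For severe minus mild stress the members' median was -0.31, with 77 of 100 below 0, against 49.2% of all clones, and the median of the other window clones was 0.05. No clone passed the adjusted p of 0.05 in limma (0.0% called); at an unadjusted p under 0.05, 24 members were lower and 7 higher under severe than under mild stress, against 3.66% and 2.73% of all clones. The median moved to -0.14 without the severe array of day 71, to -0.15 without the mild array of day 45, to -0.09 with no background correction (60 members below 0), and to -0.02 with array weights. Those weights were estimated without day or level, so that an array set apart by its day or level lost weight too.

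NL16_H05 had the smallest p of the members, with a difference of -1.20 (SE 0.31) and a limma adjusted p of 0.437. NL10_A01 differed by -1.20 (SE 0.32) and NL11_D05 by -1.25 (SE 0.34), with limma adjusted p of 0.462 and 0.480. NL11_D05 had 1.74, 1.61, 0.22, 0.71, 1.13, 1.77 and -0.48 on mild days 45, 52, 59, 63, 67, 71 and 75, and -0.49, -0.24, 0.40, 0.16, 0.49 and -1.07 on severe days 45, 52, 59, 63, 67 and 71. It was lower under severe than under mild stress on 5 of 6 days, day 59 being the exception. By group, the median difference was -0.32 for the 48 members led by NL23_F05, -0.46 for the 31 led by NL7_G05 and -0.04 for the 20 led by NL39_H03. For moderate minus mild stress the members' median was -0.17, with 70 below 0, against 49.1% of all clones. At an unadjusted p under 0.05 in limma 7 members were lower and 3 higher, against 1.82% and 4.76% of all clones. Without the mild array of day 45 the median was -0.02, with 52 members below 0. For severe minus moderate stress the median was -0.11, with 65 members below 0, against 51.7% of all clones. It was -0.02 without the severe array of day 71, with 54 members below 0, and turned to 0.02 with no background correction and with the moderate files of days 52 and 55 exchanged. Here 9 members were lower and 0 higher at an unadjusted p under 0.05 in limma, against 3.26% and 0.905% of all clones. No clone passed the adjusted p in either comparison (0.0% called).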

How the data were processed

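For 21 arrays the deposited intensity values are the output of the QuantArray scanner software, with local background not yet subtracted, per the file headers. For the mild and moderate arrays of day 75 short deposited tables give the intensity columns together with a log2 value. The authors' deposited value table holds log2 ratios centred per spot within each level (spot means over days within 0.0038 of 0); how the ratios were normalised is not stated in its labels or header. In the table's moderate part, the day 52 column followed the day 55 scanner file and the reverse (correlations 0.76 and 0.72 over clones, against -0.04 and 0.13 for their own day), whereas the scanner headers matched the labels, so the scanner files were used as labelled. No array's direction was changed: dyes are stated in the labels, although mild day 55 correlated at -0.36 with moderate day 59 and -0.33 with moderate day 63, and moderate day 55 at -0.31 with severe day 59.

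Each array held 7296 clones as 2 spots each. Background was corrected with normexp (offset 50), 1 loess curve was fitted per array (span 0.3, 4 iterations; empty, control and ignored spots at weight 0) and duplicates were averaged. Tests used limma 3.58.1 in R 4.3.3 (lmFit, eBayes, Benjamini-Hochberg, threshold 0.05). Tested on simulated data with a log2 change of 1 given to 200 of 7296 clones, the fit recovered 26 for day 75 (1 false call) and 105 for severe minus mild stress (8 false); at 0.5 it recovered 0 of 200 in both. The number of arrays limits the precision.

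The clones named are the 10 members with the highest minimum ratio, those at the threshold, the 5 brightest, the 4 lowest and 4 highest on day 75, those with the 3 largest channel differences each way, and the 3 highest and 3 lowest on another day; other names were chosen after values were seen. The members and lists were chosen with earlier results of these data known. Alternatives were no background correction, median centring, print-tip loess, scaling, array weights, a filter on dim clones, exchanged moderate files and left-out arrays. The array weights were estimated over all arrays without day or level, so they do not measure array quality alone.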

Additional observations from a re-analysis of the deposited data

Results flagged for a closer look

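A test for 1 array set apart from the others of its level (Dixon's, 95%) was made for 99 sets of values: the members' medians and the named members at each level. It marked 8, all of them arrays of day 55. Chance marks about 1 set in 20, but that rate does not apply here, since the rule chose the members for their values of that day; the marks are a description. The members' median log2 ratio under mild stress (-1.92 on day 55, with the next lowest at -0.46) and their median stress channel on the same array (10.32, with the next lowest at 11.89) were marked. On mild day 55, NL7_G05 (-3.43), NL12_E09 (-3.71) and NL12_H01 (-2.06) stood apart. On moderate day 55, NL12_B02 (-1.68), NL45_D06 (-1.36) and NL50_G02 (-2.95) did. No severe array was marked.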

How the results depend on the processing

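On day 55 every alternative kept the members' medians below 0, which were -1.92, -1.45 and -1.34 under mild, moderate and severe stress. The members were chosen for low ratios on these arrays, so that medians below 0 are largely given by the choice. Print-tip loess gave -0.76, -0.74 and -0.75, and the authors' value table -1.24, -0.61 and -0.78, where the moderate column of day 52, which matches the day 55 scanner file, gave -0.93. With no background correction the mild median was -1.54. With the moderate files of days 52 and 55 exchanged the moderate median was -0.58. Scaling between arrays, added after seeing the data, gave -1.31 under mild and -1.88 under severe stress. Of 100 members, 94 had their largest 3-level mean of days 45 to 71 on day 55, but 46 with print-tip loess.

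No clone passed on day 75 in the main setting, while 7 passed with no background correction, 3 with print-tip loess, 157 with scaling between arrays (2 of them members, both lower), 85 with array weights (3 members, all lower) and 273 when the spread came from the 2 arrays of day 75 alone (12 members, 11 of them lower). Leaving out the mild or the moderate array of day 75 gave 0 to 3 clones, and no member. For severe minus mild stress, leaving out a day in turn gave 0 to 1 clones, the 1 without day 52, and no member. The members' median difference there, -0.31, moved to -0.02 with array weights, -0.09 with no background correction, -0.16 with print-tip loess and -0.18 with scaling. For moderate minus mild stress it was -0.17, and 0.01 without day 45 or with array weights, -0.08 with print-tip loess and -0.29 with the moderate files exchanged. For severe minus moderate stress it was -0.11, and -0.01 with array weights, -0.03 with scaling and 0.02 with no background correction or with the moderate files exchanged. The cause of the changes was not tested. No paired analysis was possible because replicate numbers stand for days, and day was already a factor in the level comparisons.

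With 1 array per level and day, no difference on day 55 has a replicate check. Most members' stress channel that day lay within the range of the empty spots, so the sizes of these ratios are poorly known, and they depend on whether slide position is corrected.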

Other observations

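The severe array of day 75, known here only through the authors' value table, entered no comparison. In that table, which is centred per spot within each level, the members' severe column of day 75 minus the mean of the severe columns of days 45, 52, 59, 63, 67 and 71 had a median of 0.80, with 17 of 100 members below 0. For all clones of the table the median was 0.15, with 44.4% below 0. The members' medians of the day 75 columns themselves, each centred over the 8 days of its level, were -0.25 (mild), 0.19 (moderate) and 0.84 (severe). Since the low values of day 55 enter that centring, these are differences between days and not ratios of stress over control, and the levels were not compared by a test.

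In the same table, the lowest of the 8 days was the column labelled day 55 for 78 members in the mild part, 23 in the moderate and 23 in the severe part. Under moderate stress it was the column labelled day 52 for 64 members.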
